A study of Mus musculus with 8 samples.

Results

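Chemokines of the CXC family and the chemokine receptors of neutrophils were taken by gene name from a table of read counts per gene: the ligands Cxcl1, Cxcl2, Cxcl3, Cxcl5, Cxcl9, Cxcl10 and Cxcl16 and the receptors Cxcr2, Cxcr1 and Cxcr4. These are 10 of the 55450 genes in the table. All 10 were found, and 9 passed the filter on low counts; Cxcl5 did not. The study sequenced total RNA from mouse neutrophils sorted into fractions by CD71, the transferrin receptor protein, in 4 groups of 2 libraries. The tumour CD71+ and tumour CD71- groups came from brain tumours of SB28, a mouse glioma line, and the culture CD71+ and culture CD71- groups were neutrophils generated in vitro from naive bone marrow. The labels give no genotype, strain, age or treatment. They do not say whether the libraries of a group are separate animals or separate cultures, so each p-value reflects the variation among the sequenced libraries, part or all of which could be technical.

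Neutrophils follow CXC chemokines with their surface receptors. CXCL1, CXCL2, CXCL3 and CXCL5 bind CXCR2, which drives neutrophils out of the bone marrow and into inflamed tissue, whereas CXCL12 acting on CXCR4 holds them in the marrow. CXCL9 and CXCL10 are induced by interferon and attract T and NK cells through CXCR3, and CXCL16 is made as a membrane protein that binds CXCR6 and can be shed by proteases. Neutrophils both answer these signals and make several of them, among which CXCL2 acts between neutrophils.

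On build mm10 with GENCODE M21, the ligands other than Cxcl16 lie on chromosome 5. Cxcl5 (90759360 to 90761624), Cxcl3 (90786103 to 90789600), Cxcl1 (90891241 to 90893115) and Cxcl2 (90903871 to 90905938) lie on the plus strand, and Cxcl9 (92321347 to 92328079) and Cxcl10 (92346638 to 92348889) on the minus strand. Cxcl16 (70453983 to 70459984, minus strand) is on chromosome 11, and Cxcr2 (74153989 to 74161246, plus strand), Cxcr1 (74191785 to 74194631, minus strand) and Cxcr4 (128588199 to 128592293, minus strand) are on chromosome 1.

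Promoters were matched for 8 of the 10 genes in RefSeq on GRCm38.p6, all but Cxcl5 and Cxcl16. The stretches from 220 to 31 bases before the start of Cxcl1 (chr5:90891025-90891214, plus strand), Cxcl2 (chr5:90903679-90903868, plus strand), Cxcl3 (chr5:90785881-90786070, plus strand) and Cxcl10 (chr5:92348920-92349109, minus strand) are shown because these are the ligands other than Cxcl16 with the most counts in the tumour libraries. Capitals mark, in Cxcl1, Cxcl2 and Cxcl3, the longest run of letters that these 3 promoters share, GGGAATTTCCC, which holds a sequence of the kind bound by NF-kappaB. In Cxcl10 they mark a match to GAAANNGAAA, of the kind bound by interferon regulatory factors. Only these patterns were searched. Variants of GGGAATTTCCC, such as gggaaattcc and ggggacttcc in Cxcl10, are unmarked, so the marks do not divide the promoters by kind of site.
Cxcl1: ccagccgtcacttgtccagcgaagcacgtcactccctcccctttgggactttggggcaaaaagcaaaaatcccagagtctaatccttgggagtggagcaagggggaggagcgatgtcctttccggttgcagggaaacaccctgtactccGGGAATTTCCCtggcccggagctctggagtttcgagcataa
Cxcl2: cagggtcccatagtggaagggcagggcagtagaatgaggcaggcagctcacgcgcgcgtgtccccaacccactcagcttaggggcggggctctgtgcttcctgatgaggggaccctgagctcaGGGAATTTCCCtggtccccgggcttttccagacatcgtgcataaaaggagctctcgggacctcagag
Cxcl3: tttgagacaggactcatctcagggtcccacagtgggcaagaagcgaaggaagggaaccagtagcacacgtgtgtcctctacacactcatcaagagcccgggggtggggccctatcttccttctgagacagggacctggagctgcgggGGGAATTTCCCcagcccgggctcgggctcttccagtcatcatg
Cxcl10: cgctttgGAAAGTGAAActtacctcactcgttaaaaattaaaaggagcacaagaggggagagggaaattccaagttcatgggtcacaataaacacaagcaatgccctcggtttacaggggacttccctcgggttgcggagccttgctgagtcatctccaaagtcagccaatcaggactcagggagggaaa
Both strands of the 250 bases before each start were searched. GGGAATTTCCC was found at bases 71 to 61 before the start of Cxcl1, 97 to 87 of Cxcl2 and 73 to 63 of Cxcl3. In all 14 of 32817 promoters held it (0.0427%). Its presence in those 3 was fixed by how it was chosen, and they are among the 14, so this share tests nothing about them. GAAANNGAAA was found as GAAAGTGAAA at bases 213 to 204 before the start of Cxcl10, and in 974 promoters (2.97%). The windows of Cxcl9, Cxcr2, Cxcr1 and Cxcr4 held neither run of letters, and those of Cxcl1, Cxcl2 and Cxcl3 did not hold GAAANNGAAA. The matches do not overlap each other, and a match describes the sequence only.

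Total counts were 11147646 to 11898224 per tumour library and 9598959 to 22615813 per culture library. Levels are given as CPM, read counts divided by a library size scaled by TMM, a method that centres each library on the bulk of its genes; 3 counts, the limit that a count of 0 allows, equalled 0.0915 to 0.419 CPM. This limit and the intervals below cover counting error only. Tfrc, the gene of CD71, was not higher in libraries labelled CD71+ on the TMM scale. It had 103 and 108 CPM in tumour CD71+ libraries and 187 and 145 CPM in tumour CD71- libraries, and 116 and 115 CPM in culture CD71+ libraries and 131 and 94.3 CPM in culture CD71- libraries. Its log2 difference between libraries labelled CD71+ and CD71- was -0.65 in the tumour (SE 0.19, edgeR adjusted p = 0.0134) and 0.03 in culture (adjusted p = 0.940). Scaled on mature neutrophil genes, the values were 0.38 in the tumour (adjusted p = 0.139) and 1.01 in culture (0.000391), so there the culture value followed the label. The tumour call was lost with total counts (-0.08, 0.765) and without tumour CD71+ replicate 1 (0.0700) or 2 (0.0519) or tumour CD71- replicate 1 (0.0518). CD71 is sorted as surface protein, which the transcript need not follow, and directions below go by the sort label.

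All 25 mature neutrophil genes had counts in every library, as the neutrophil label asks, with summed levels of 21075 and 22370 CPM in tumour CD71+ libraries, 43516 and 45512 CPM in tumour CD71- libraries, 4840 and 6097 CPM in culture CD71+ libraries and 10250 and 10940 CPM in culture CD71- libraries. Ly6g of this list, whose protein is often used to sort mouse neutrophils, was low, at 6.06 and 9.03 CPM in tumour CD71+ libraries, 9.36 and 14.1 CPM in tumour CD71- libraries, 23.1 and 16.3 CPM in culture CD71+ libraries and 78.2 and 60.2 CPM in culture CD71- libraries. Of the 25 genes, 21 were lower in tumour CD71+ than CD71- libraries, and 11 were lower in culture CD71+ than CD71- libraries. The others did not pass. Of all 15975 genes tested, 26.2% were higher and 17.3% lower in tumour CD71+ libraries, and 7.88% and 8.36% in culture CD71+ libraries. Markers of other cells moved the other way. Of 17 tested macrophage and monocyte genes, 15 were higher in tumour CD71+ libraries, with summed levels of 4705 and 5247 CPM against 1187 and 1232 CPM in tumour CD71- libraries. In culture 11 of the 17 were higher and 1 lower in CD71+ libraries, at 1905 and 2344 CPM against 1423 and 1478 CPM in CD71- libraries. All 10 microglia genes were higher in tumour CD71+ libraries (1371 and 1897 CPM, against 180 and 198 CPM in tumour CD71- libraries), and 4 of 10 in culture CD71+ libraries (131 and 162 CPM, against 71.7 and 73.7 CPM in culture CD71- libraries). Of 8 tested dendritic cell genes, 5 were higher in tumour CD71+ libraries (132 and 155 CPM, against 50.04 and 51.96 CPM in tumour CD71- libraries) and 3 in culture CD71+ libraries (57.01 and 57.5 CPM, against 9.48 and 17.05 CPM in culture CD71- libraries). By DESeq2, 2 of the 8 dendritic cell genes passed as higher in tumour CD71+ libraries. Few genes could be tested for lymphocytes (3 of 3 higher in tumour CD71+ libraries, 1 by DESeq2), glioma and neural cells (5 of 8 higher, and by DESeq2 4 higher and 1 lower) and endothelial and stromal cells (3 of 6 higher and 1 lower, and by DESeq2 2 and 1), and in culture edgeR called 0 genes of these 3 lists (1 higher and 1 lower at an unadjusted p under 0.05, and 1 lower by DESeq2, all endothelial and stromal). The microglial gene Sall1 had 0 counts in all 4 culture libraries, and the macrophage gene C1qa had 0 counts in both culture CD71- libraries. Mitochondrially encoded genes took 0.829% and 1.04% of counts in tumour CD71+ libraries and 0.413% and 0.202% in tumour CD71- libraries. They took 1.45% and 2.17% in culture CD71+ libraries and 7.09% and 12% in culture CD71- libraries.

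**Figure D1:**
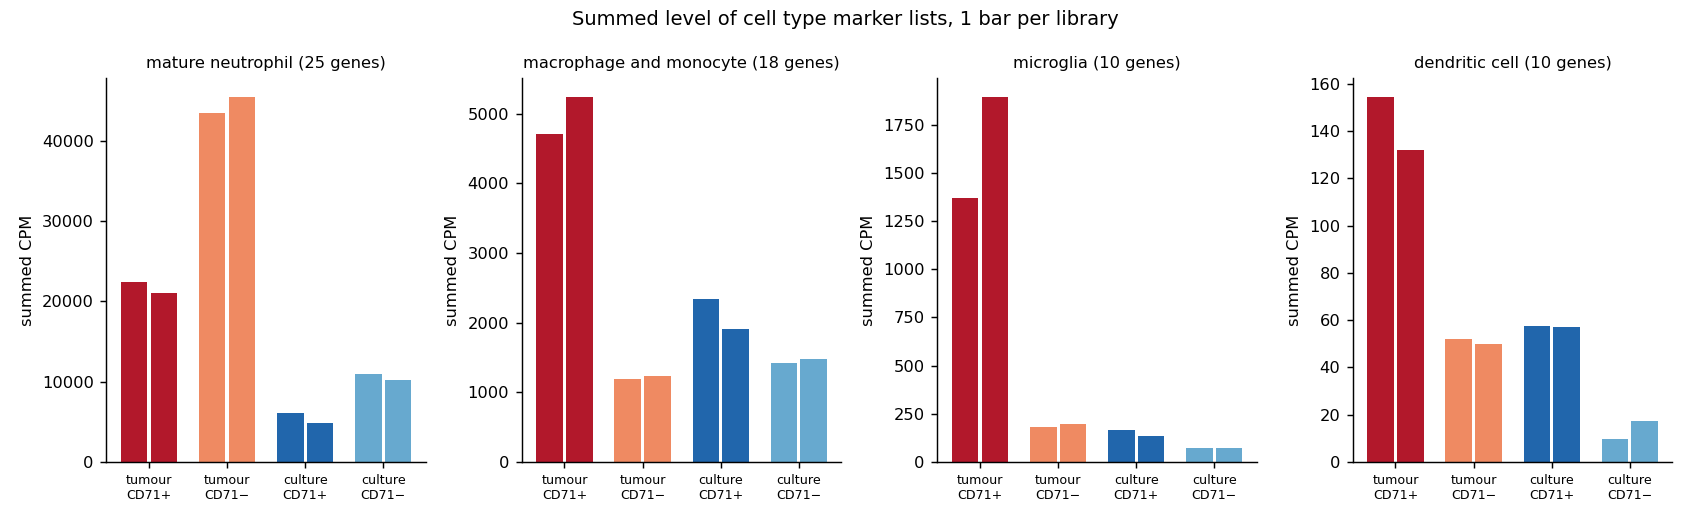
Summed CPM of 4 marker lists (y axes, each from 0) with 1 bar for each of the 8 libraries, grouped by source and sort label. Tumour CD71+ libraries had the highest sums of macrophage and monocyte, microglia and dendritic cell genes, and tumour CD71- libraries the highest sum of mature neutrophil genes (43516 and 45512 CPM).

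In the tumour, libraries labelled CD71+ held more Cxcl16 and Cxcl9 and less Cxcl2, Cxcr2, Cxcr1 and Cxcr4 RNA than those labelled CD71-, on the TMM scale. Of the 9 tested genes of the set, 2 passed as higher, 4 as lower and 3 did not pass, where 43.5% of the 15975 genes tested passed (26.2% higher and 17.3% lower). Their median log2 fold change was -0.60, against 0.13 over all genes tested. The 4 falls rested on the scaling: scaled on total counts, none of the 4 passed, and scaled on mature neutrophil genes, Cxcl2, Cxcr2 and Cxcr4 changed sign. Cxcl16 and Cxcl9 were higher under all 4 scalings tried. Cxcl9 passed the filter on low counts mainly by its tumour CD71+ counts (97 and 60, against 5 and 11 in CD71- libraries), which favoured that direction. In bulk libraries, fewer cells of a type and less RNA per cell cannot be told apart.

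In culture, CD71+ libraries held more Cxcl16 and Cxcl1 and less Cxcr1 RNA than CD71- libraries, and less Cxcr2 RNA on the TMM scale, a direction that changed sign when scaled on mature neutrophil genes. Of the 8 genes of the set with counts in culture and tested, 2 passed as higher, 2 as lower and 4 did not pass, where 16.2% of all genes tested passed (7.88% higher and 8.36% lower). Their median log2 fold change was -0.08, against 0.03 over all genes tested. The markers given above and the share of mitochondrially encoded counts also differed between the culture fractions, and their part in these results was not tested.

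Tested directly, the CD71 effect in the tumour was lower than that in culture for 3 of these 8 genes, Cxcl1, Cxcl3 and Cxcl16, and the other 5 did not pass, where 15.5% of all genes tested passed (10.8% higher and 4.71% lower). By DESeq2 4 of the set passed, without a filter on low counts 5, and with mature neutrophil scaling 2. With total counts 3 passed, but not Cxcl3 (edgeR adjusted p = 0.0529) or Cxcl16 (0.0677). The calls of Cxcl3 and Cxcl16 also depended on single libraries, as given below.

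Between sources the ligands differed most. All 9 tested genes were higher in the tumour than in culture, in CD71- libraries and in CD71+ libraries, where 67.1% and 57.9% of all genes tested passed (30.3% higher in each, and 36.8% and 27.6% lower). The median log2 fold change of the 9 was 5.89 in CD71- libraries, or 5.55 with genes at 0 in culture taken at their bounds, against -0.28 over all genes tested, and 4.45 in CD71+ libraries, against -0.08. Cxcl9, with 0 counts in culture, could pass the filter on low counts only by its tumour counts, so it could only come out higher. Cxcl1, with 0 to 14 counts per culture library, came close to this. The higher level of Cxcr2 and Cxcr4 did not hold when scaled on mature neutrophil genes. That of Cxcr1 in CD71- libraries did not pass there (log2 fold change 0.42, edgeR adjusted p = 0.320). Markers of other cells differed between the sources too. Of 10 microglia genes, 7 were higher and 1 lower in tumour than culture CD71- libraries and 10 were higher in CD71+ libraries (median log2 fold changes 3.19 and 4.76). Of 8 glioma and neural genes, 6 and 7 were higher (medians 6.50 and 7.52), with sums of 133 to 216 CPM in tumour libraries and 78.8 to 102 CPM in culture libraries. Of 17 macrophage and monocyte genes, 9 were higher and 5 lower in CD71- libraries, and 11 were higher in CD71+ libraries. Of 10 early neutrophil and primary granule genes, 2 were higher and 6 lower in tumour than culture CD71- libraries, and 3 higher and 4 lower in CD71+ libraries. Their sums were 393 to 1120 CPM in tumour libraries and 1828 to 3379 CPM in culture libraries. The part of these cells in the source differences was not tested. The 2 sources differ both in tissue and in having been generated in vitro, and these cannot be told apart.

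The scaling moved the median of all genes, and with it the direction of genes near 0. Mature neutrophil scaling uses the summed counts of 25 genes, so those with the most counts weigh most. On the TMM scale the median log2 fold change of these genes was -0.97 in the tumour CD71 comparison and -0.55 in that of culture. For tumour against culture it was 1.41 in CD71- libraries and 1.28 in CD71+ libraries. For the tumour CD71 comparison the median log2 fold change over all genes shifted by -0.20 with DESeq2 size factors, 0.56 with total counts and 1.03 with mature neutrophil scaling, and the share of passing genes that were higher was 47.3%, 93.3% and 99.7%, against 60.2% with TMM. For the culture CD71 comparison the shifts were -0.03, 0.31 and 0.97, with shares of 42.3%, 80.9% and 98%, against 48.5%. For the difference of the CD71 effects the shifts were -0.17, 0.25 and 0.06, with shares of 52.1%, 87.4% and 77.2%, against 69.6%. For tumour against culture the shifts were 0.25, -0.93 and -2.06 in CD71- libraries, with shares of 52.1%, 25.3% and 12% against 45.1%, and 0.07, -0.68 and -2.003 in CD71+ libraries, with shares of 55.5%, 29.3% and 12.4% against 52.3%.

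**Figure D2:**
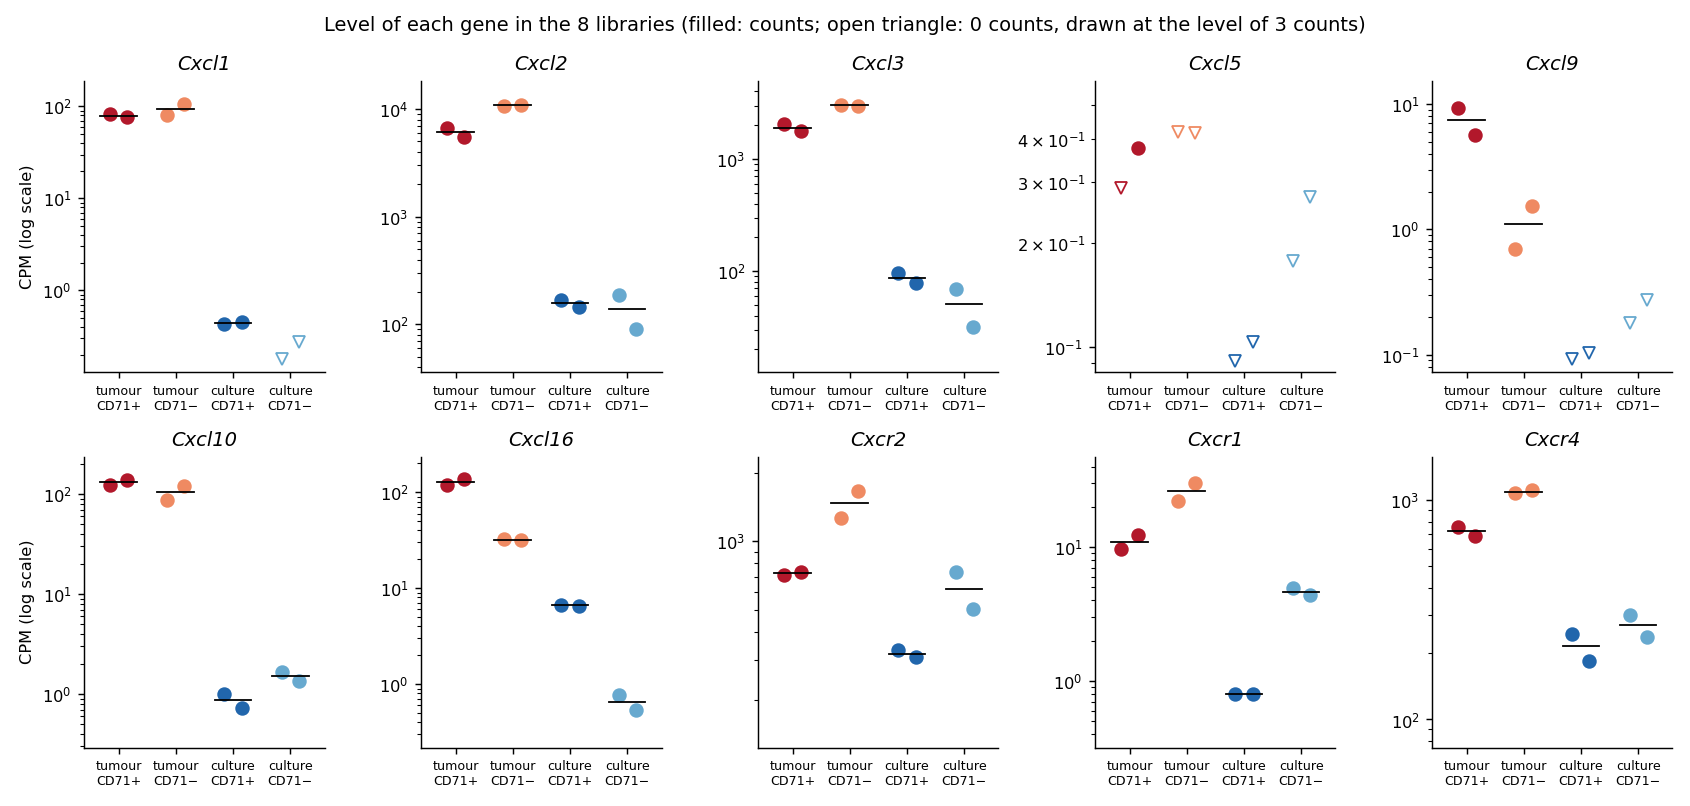
CPM (log scale) of each of the 10 genes in the 8 libraries, with group means as lines; an open triangle marks 0 counts, drawn at the level of 3 counts. For the 9 genes other than Cxcl5 every tumour library lay above every culture library, except that Cxcr2 in 1 culture CD71- library (735 CPM) lay between the 2 tumour CD71+ libraries.

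Among the ligands of CXCR2, Cxcl2 had the highest level per exon length in every group. Cxcl2 had 6738 and 5519 CPM in tumour CD71+ libraries, 10572 and 11022 CPM in tumour CD71- libraries, 167 and 145 CPM in culture CD71+ libraries, and 188 and 90.0 CPM in culture CD71- libraries. Both tumour CD71- libraries were above both tumour CD71+ libraries, all culture libraries were far below, and the culture groups overlapped. Cxcl2 was lower in tumour CD71+ than CD71- libraries by edgeR's quasi-likelihood test on the TMM scale (log2 fold change -0.82, SE 0.27, adjusted p = 0.0277). That call was lost without tumour CD71+ replicate 1 (adjusted p = 0.0515), tumour CD71+ replicate 2 (0.159) or tumour CD71- replicate 2 (0.0736), was lost with total counts (log2 -0.26, 0.463), and turned to 0.22 with mature neutrophil scaling. In culture the log2 difference was 0.17 (adjusted p = 0.730), and 0.46 with total counts (0.251). It passed as higher with mature neutrophil scaling (1.14, edgeR adjusted p = 0.000449), so the culture result rested on the scaling. It also moved with the CD71- libraries: without replicate 1 the log2 fold change was 0.81, and without replicate 2 it was -0.26. The difference of the CD71 effects in Cxcl2 was -0.98 (adjusted p = 0.0995), and -1.64 without culture CD71- replicate 1. This difference passed as lower in the tumour with no filter (edgeR adjusted p = 0.00204) and by DESeq2's test (0.0139). It did not pass with DESeq2 size factors (edgeR adjusted p = 0.0551), total counts (0.213) or mature neutrophil scaling (0.0690). Against culture, Cxcl2 in the tumour was higher by 6.28 on the log2 scale in CD71- libraries (SE 0.34, adjusted p = 4.99e-09) and by 5.30 in CD71+ libraries (SE 0.32, adjusted p = 2.24e-08).

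Cxcl3, a close relative of Cxcl2, was second among the ligands by level per exon length. Cxcl3 had 2046 and 1766 CPM in tumour CD71+ libraries, 3035 and 2969 CPM in tumour CD71- libraries, 95.7 and 78.1 CPM in culture CD71+ libraries, and 69.5 and 31.5 CPM in culture CD71- libraries. The CD71 fractions did not overlap in either source, and on the TMM scale the order was opposite: CD71- libraries had more in the tumour, CD71+ libraries had more in culture. Neither difference passed on its own (tumour log2 -0.65, SE 0.28, edgeR adjusted p = 0.0784; culture 0.78, SE 0.29, adjusted p = 0.0856). The tumour value was -0.10 with total counts (adjusted p = 0.808) and 0.38 with mature neutrophil scaling (adjusted p = 0.191). It passed, as lower, when only those groups were fitted (adjusted p = 0.00157), with DESeq2's test (0.00507), with DESeq2 size factors (0.0229), with no filter (0.00394), and without culture CD71- replicate 1 (0.00226) or 2 (0.00205). The culture value passed with total counts (log2 1.07, adjusted p = 0.0173), with mature neutrophil scaling (1.75, 1.02e-05), with no filter (0.83, 0.000220), with DESeq2's test (0.74, 0.0351), and without culture CD71- replicate 1 (1.49, 0.000387). What passed for Cxcl3 was the difference of the CD71 effects, -1.43 (SE 0.40, adjusted p = 0.0325). Leaving out any tumour library or either culture CD71+ library took its adjusted p to between 0.0552 and 0.120, and scaling on total counts to 0.0529. Tumour exceeded culture by 5.89 on the log2 scale in CD71- libraries (SE 0.35, adjusted p = 2.54e-08) and by 4.45 in CD71+ libraries (SE 0.32, adjusted p = 2.25e-07). Cxcl2 and Cxcl3 share part of their sequence, with 5.84% of the 50-base words of Cxcl2 exons found in Cxcl3 and 3.51% of those of Cxcl3 in Cxcl2, so a small part of their reads could be split between them or lost.

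Cxcl1 was at least 76.0 CPM in every tumour library and near the limit of detection in culture. Cxcl1 had 83.3 and 76.0 CPM in tumour CD71+ libraries and 80.6 and 106 CPM in tumour CD71- libraries, groups that overlapped. It had 0.427 and 0.449 CPM in culture CD71+ libraries, from 14 and 13 counts, and 0 counts in both culture CD71- libraries. The tumour fractions did not differ past the threshold (log2 -0.22, SE 0.19, edgeR adjusted p = 0.358), although total counts gave 0.33 (adjusted p = 0.227) and scaling on mature neutrophil genes 0.81 (adjusted p = 0.0133). In culture, Cxcl1 was at least 1.95-fold higher in CD71+ than in CD71- libraries, taking 3 counts per library as the limit for the zeros of the CD71- libraries (adjusted p = 0.00310). With the zeros at that limit and the other group means taken as exact, the CD71 effect was lower in the tumour by at least 1.19 (log2). EdgeR's test of no difference between the effects gave an adjusted p of 0.00391. Tumour libraries had at least 414-fold more Cxcl1 than culture in the CD71- fraction (adjusted p = 1.75e-10), and a log2 fold change of 7.48 in the CD71+ fraction (SE 0.28, adjusted p = 2.94e-10).

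Cxcl5, which epithelial cells make in many tissues, had 4 counts in tumour CD71+ replicate 2 and 0 counts in the other 7 libraries. It was not tested, and at this depth no difference was detectable.

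Among the ligands induced by interferon, Cxcl10 had the higher level per exon length. Cxcl10 had 123 and 140 CPM in tumour CD71+ libraries, 88.0 and 121 CPM in tumour CD71- libraries, 1.01 and 0.726 CPM in culture CD71+ libraries, and 1.66 and 1.36 CPM in culture CD71- libraries. The tumour fractions barely separated, and the culture values rest on 15 to 33 counts per library. Neither CD71 comparison passed (tumour log2 0.33, SE 0.19, edgeR adjusted p = 0.183; culture -0.81, SE 0.32, adjusted p = 0.0994). With total counts the tumour fold change was 0.89 (adjusted p = 0.00377), and with mature neutrophil scaling 1.37 (adjusted p = 3.89e-05). Without tumour CD71- replicate 1 it was -0.03 (0.931), and the culture value was 0.14 with mature neutrophil scaling (0.748). The difference of the CD71 effects was 1.14 (adjusted p = 0.0528), and passed with total counts (1.39, 0.0272) and with no filter (1.11, 0.0374). Tumour exceeded culture by 6.09 on the log2 scale in CD71- libraries (SE 0.27, adjusted p = 3.80e-10) and by 7.22 in CD71+ libraries (SE 0.27, adjusted p = 1.35e-10). Exons of Cxcl10 overlap those of Art3 on the opposite strand over 133 bases, and the strand setting of the counting was not given in the sources used here; Art3 had 0 to 8 counts per library.

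Cxcl9 had counts only in the tumour, namely 97 and 60 in CD71+ libraries (9.33 and 5.64 CPM) and 5 and 11 in CD71- libraries (0.698 and 1.52 CPM), with 0 counts in all 4 culture libraries. Both tumour CD71+ libraries were above both CD71- libraries. Cxcl9 was higher in tumour CD71+ libraries (log2 fold change 2.74, SE 0.59, edgeR adjusted p = 0.00301), and the call was lost without tumour CD71- replicate 1 (2.14, adjusted p = 0.0531). The tumour level was at least 4.94-fold above culture in CD71- libraries (adjusted p = 0.000904) and at least 76.7-fold in CD71+ libraries (adjusted p = 2.74e-06). Macrophage, microglia and dendritic cell markers rose in the same tumour CD71+ libraries, as given above, and their part in this result was not tested.

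Cxcl16, the membrane-bound ligand of CXCR6, was the 1 gene of the set that passed as higher in the CD71+ fraction of both sources. Cxcl16 had 119 and 137 CPM in tumour CD71+ libraries, 32.5 and 31.6 CPM in tumour CD71- libraries, 6.65 and 6.60 CPM in culture CD71+ libraries, and 0.770 and 0.544 CPM in culture CD71- libraries. The replicates lay close together and no groups overlapped; the culture CD71- values rest on 13 and 6 counts. CD71+ libraries were higher in the tumour (log2 fold change 1.99, SE 0.18, edgeR adjusted p = 4.66e-06) and in culture (3.28, SE 0.27, adjusted p = 7.19e-06). Over all alternatives and all left-out libraries, the tumour value stayed between 1.77 and 3.03. The difference of the CD71 effects was -1.28 (SE 0.34, adjusted p = 0.0217), lower in the tumour. Its adjusted p was 0.0564 without tumour CD71+ replicate 1, 0.0708 and 0.0668 without culture CD71+ replicate 1 or 2, 0.0710 without culture CD71- replicate 2, 0.0677 with total counts and 0.0718 with mature neutrophil scaling. Tumour exceeded culture by 5.55 on the log2 scale in CD71- libraries (SE 0.26, adjusted p = 6.39e-10) and by 4.27 in CD71+ libraries (SE 0.20, adjusted p = 8.01e-10).

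Macrophages, dendritic cells and microglia also make Cxcl16, and their marker sums were higher in CD71+ than CD71- libraries in both sources, as given above; their part in the Cxcl16 difference was not tested. In culture 11 of the 17 macrophage and monocyte genes were higher in CD71+ libraries and 1 was lower, at summed levels of 1905 and 2344 CPM, against 1423 and 1478 CPM in CD71- libraries. Of that list, Csf1r, the receptor gene of macrophage colony-stimulating factor, had 791 and 703 CPM in culture CD71+ libraries and 526 and 566 CPM in culture CD71- libraries. C1qa had 0.732 and 0.380 CPM in culture CD71+ libraries and 0 in culture CD71- libraries. Exons of Cxcl16 overlap those of Zmynd15 on the opposite strand over 552 bases, so reads there are uncertain. Zmynd15 had 50 and 78 counts in tumour CD71+ libraries and 14 and 24 in tumour CD71- libraries, and 8 and 26 in culture CD71+ libraries and 2 and 1 in culture CD71- libraries, fewer than Cxcl16 in every library.

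**Figure D3:**
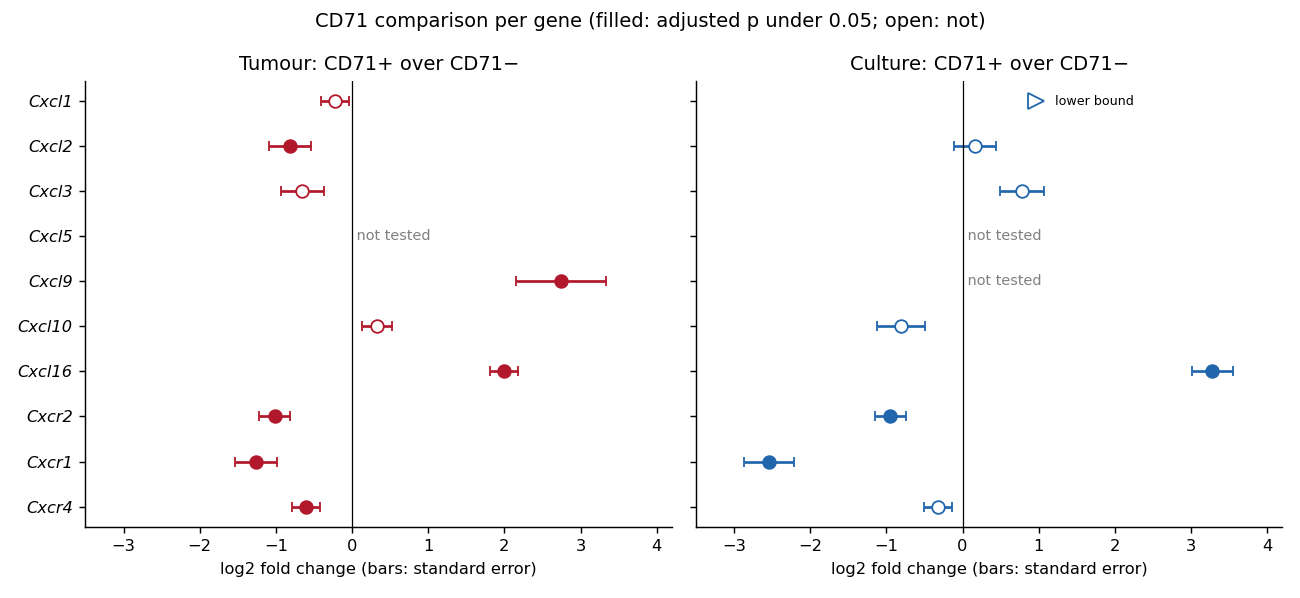
Log2 fold changes of CD71+ over CD71- libraries (x axis, bars for the standard error) for each gene (y axis) in the tumour (left) and in culture (right), from the edgeR fit with TMM scaling; filled points passed an adjusted p of 0.05. Cxcl16 was higher in both sources (1.99 and 3.28), while Cxcr2 (-1.02 and -0.95) was lower in both on this scale and turned to 0.02 and 0.03 with mature neutrophil scaling.

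Cxcr2 encodes the main receptor of mouse neutrophils for CXCL1, CXCL2, CXCL3 and CXCL5. Cxcr2 had 713 and 736 CPM in tumour CD71+ libraries, 1270 and 1667 CPM in tumour CD71- libraries, 332 and 310 CPM in culture CD71+ libraries, and 735 and 503 CPM in culture CD71- libraries. CD71+ libraries were below CD71- libraries in both sources without overlap. On the TMM scale Cxcr2 fell in the tumour (log2 fold change -1.02, SE 0.20, edgeR adjusted p = 0.00144) and in culture (-0.95, SE 0.20, adjusted p = 0.00607), and with mature neutrophil scaling the values were 0.02 and 0.03. With total counts they were -0.46 (adjusted p = 0.100) and -0.64 (0.0512), and the culture call was also lost without culture CD71+ replicate 1 (0.05003) or 2 (0.0686). The CD71 effects differed by -0.07 between the sources (SE 0.28, adjusted p = 0.907). Cxcr2 in the tumour exceeded culture by 1.25 on the log2 scale in CD71- libraries (SE 0.20, adjusted p = 0.000101) and by 1.17 in CD71+ libraries (SE 0.20, adjusted p = 0.000227), and turned to -0.82 and -0.83 with mature neutrophil scaling (adjusted p = 0.000736 and 0.000648). With total counts neither source difference of Cxcr2 passed (0.32, adjusted p = 0.201, and 0.50, adjusted p = 0.0542).

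Set against the summed counts of the 25 mature neutrophil genes of the same library, the Cxcr2 fractions overlapped in both sources. Per 1000 such counts there were 31.9 and 34.9 Cxcr2 counts in tumour CD71+ libraries and 29.2 and 36.6 in tumour CD71- libraries. There were 54.5 and 64.0 in culture CD71+ libraries and 67.2 and 49.1 in culture CD71- libraries. Why Cxcr2 moved with this list was not tested.

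Cxcr1 is a further receptor next to Cxcr2 on the chromosome, whose human counterpart binds CXCL8. Cxcr1 had 9.61 and 12.2 CPM in tumour CD71+ libraries, 22.1 and 30.4 CPM in tumour CD71- libraries, 0.793 and 0.795 CPM in culture CD71+ libraries, and 4.92 and 4.35 CPM in culture CD71- libraries. No groups overlapped, and CD71+ libraries were lower in both sources. Cxcr1 fell by 1.26 on the log2 scale in tumour CD71+ libraries (SE 0.27, edgeR adjusted p = 0.00252), but by 0.70 with total counts (adjusted p = 0.0782) and by 0.22 with mature neutrophil scaling (adjusted p = 0.657). It fell by 2.54 in culture CD71+ libraries (SE 0.32, adjusted p = 0.000196). There it passed as lower under every scaling tried, at -2.23 with total counts (adjusted p = 0.000629) and -1.58 with mature neutrophil scaling (0.00324). The difference of the CD71 effects, 1.28, did not pass (SE 0.42, adjusted p = 0.0545), and passed with total counts (1.53, 0.0343) and without tumour CD71+ replicate 1 (1.43, 0.0496). Tumour exceeded culture by 2.49 on the log2 scale in CD71- libraries (SE 0.29, adjusted p = 4.29e-06), or 0.42 with mature neutrophil scaling (adjusted p = 0.320), and by 3.77 in CD71+ libraries (SE 0.32, adjusted p = 2.69e-07).

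Cxcr4 encodes the receptor of the marrow chemokine CXCL12. Cxcr4 had 759 and 684 CPM in tumour CD71+ libraries, 1076 and 1112 CPM in tumour CD71- libraries, 245 and 186 CPM in culture CD71+ libraries, and 301 and 238 CPM in culture CD71- libraries. The tumour fractions did not overlap and the culture fractions did. Cxcr4 was lower in tumour CD71+ than CD71- libraries on the TMM scale (log2 fold change -0.60, SE 0.18, edgeR adjusted p = 0.0180), but -0.04 with total counts (adjusted p = 0.884) and 0.43 with mature neutrophil scaling (0.0580). That call was also lost without tumour CD71+ replicate 2 (adjusted p = 0.118). In culture the value was -0.32 (SE 0.18, adjusted p = 0.259), and 0.63 with mature neutrophil scaling (adjusted p = 0.00747). The CD71 effects differed by -0.28 (adjusted p = 0.505). Tumour exceeded culture by 2.02 on the log2 scale in CD71- libraries (SE 0.19, adjusted p = 5.56e-07) and by 1.74 in CD71+ libraries (SE 0.19, adjusted p = 2.98e-06), and turned to -0.04 and -0.24 with mature neutrophil scaling.

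**Figure D4:**
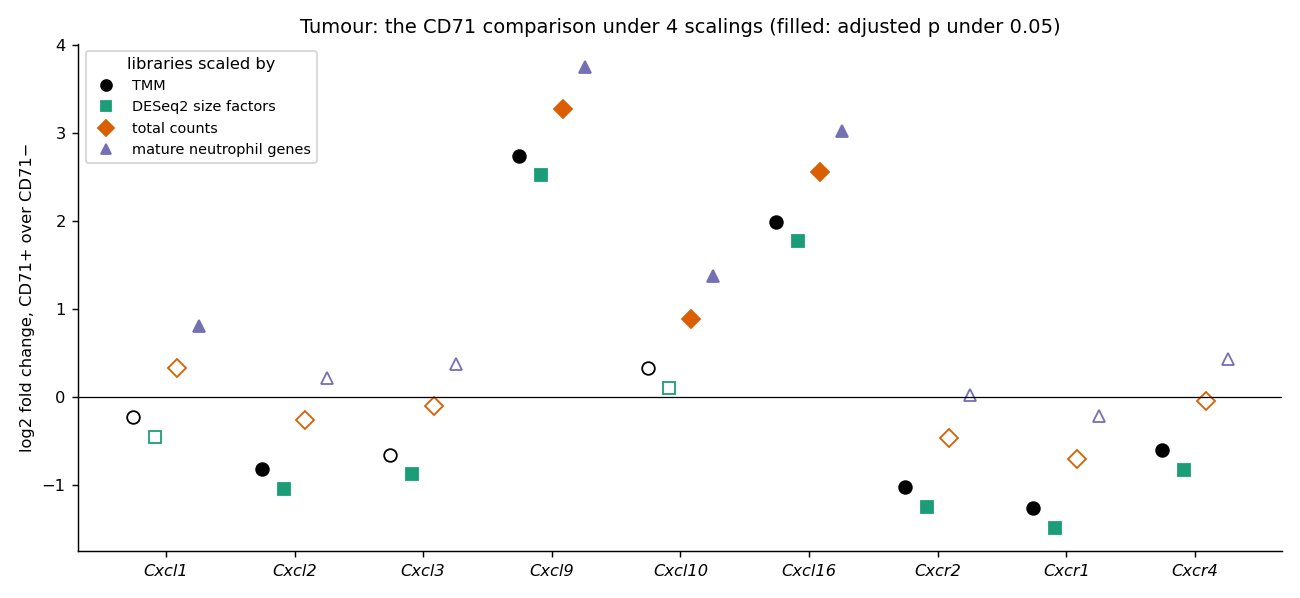
Log2 fold change of tumour CD71+ over tumour CD71- libraries (y axis) for the 9 tested genes (x axis) under 4 ways of scaling the libraries; filled symbols passed an adjusted p of 0.05. Cxcl9 and Cxcl16 were higher under all 4 scalings, whereas Cxcl2, Cxcr2 and Cxcr4 were lower with TMM (-0.82, -1.02 and -0.60) and above 0 with mature neutrophil scaling (0.22, 0.02 and 0.43).

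Ratios of counts within a library do not depend on how libraries are scaled. With 2 libraries a group, an exact permutation test on both sides cannot give a p below 0.333, so the ratios are a description. The ratio of Cxcr4 to Cxcr2 counts was 1.06 and 0.929 in tumour CD71+ libraries and 0.847 and 0.667 in tumour CD71- libraries, and 0.738 and 0.600 in culture CD71+ libraries and 0.409 and 0.473 in culture CD71- libraries. CD71+ libraries had more Cxcr4 for each Cxcr2 count in both sources, without overlap. The ratio of Cxcl3 to Cxcl2 counts was 0.304 and 0.320 in tumour CD71+ libraries and 0.287 and 0.269 in tumour CD71- libraries, and 0.574 and 0.537 in culture CD71+ libraries and 0.370 and 0.349 in culture CD71- libraries. Here too CD71+ libraries were above CD71- libraries in each source, and every tumour library was below every culture library.

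The makeup of the 7 ligands differed between sources as well as in amount. Together they took 0.810% and 0.729% of all counts in tumour CD71+ libraries and 0.831% and 0.920% in tumour CD71- libraries, and 0.0392% and 0.0345% in culture CD71+ libraries and 0.0318% and 0.0142% in culture CD71- libraries. Cxcl2 made up 73.9% and 72.2% of ligand counts in tumour CD71+ libraries, 76.6% and 77.3% in tumour CD71- libraries, 61.6% and 62.9% in culture CD71+ libraries, and 72.3% and 73.0% in culture CD71- libraries. Most ligand counts were those of Cxcl2 in every library. Cxcl16 made up 1.3% (95% exact Clopper-Pearson interval 1.23 to 1.37) and 1.79% (1.698 to 1.88) of ligand counts in tumour CD71+ libraries, and 0.236% (0.206 to 0.268) and 0.222% (0.194 to 0.252) in tumour CD71- libraries. In culture its share was 2.46% (2.14 to 2.80) and 2.85% (2.47 to 3.28) in CD71+ libraries and 0.296% (0.158 to 0.506) and 0.441% (0.162 to 0.957) in CD71- libraries. The share of Cxcl16 was above that of the CD71- fraction in every CD71+ library, with intervals that did not meet.

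**Figure D5:**
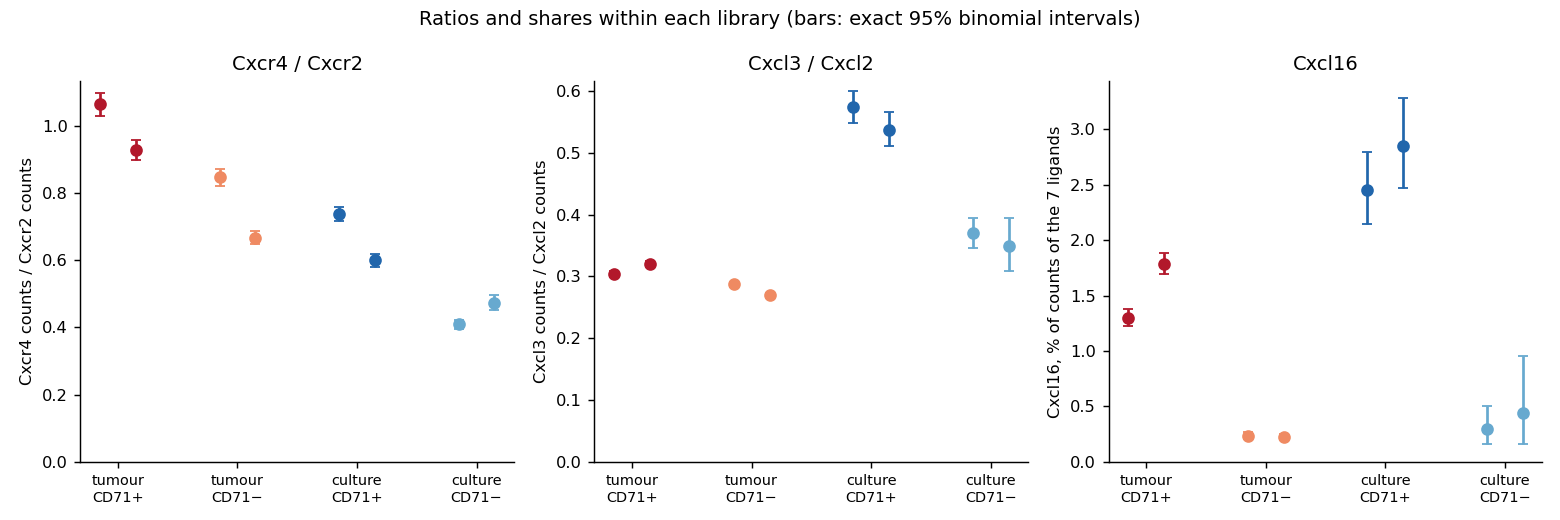
Ratio of Cxcr4 to Cxcr2 counts (left), ratio of Cxcl3 to Cxcl2 counts (middle) and Cxcl16 as a percent of the counts of the 7 ligands (right) in each of the 8 libraries, with exact 95% binomial intervals that cover counting error only. In each panel both CD71+ libraries of a source lie above both CD71- libraries of that source.

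To compare genes with each other, mean CPM were divided by exon length in kilobases. In tumour CD71+ libraries the order was Cxcl2 (2963 CPM per kb), Cxcl3 (545), Cxcr4 (399), Cxcr2 (238), Cxcl10 (58.3), Cxcl1 (42.5), Cxcl16 (42.2), Cxcr1 (7.33) and Cxcl9 (2.48), and Cxcl1 and Cxcl16 overlapped between libraries. In tumour CD71- libraries it was Cxcl2 (5221), Cxcl3 (858), Cxcr4 (605), Cxcr2 (482), Cxcl1 (49.7), Cxcl10 (46.4), Cxcr1 (17.6), Cxcl16 (10.6) and Cxcl9 (0.369), and Cxcl1 and Cxcl10 overlapped. In the tumour, then, the ligand Cxcl2 stood first by level per length, above every receptor. In culture CD71+ libraries the order began with Cxcr4 (119 CPM per kb) and Cxcr2 (105), which overlapped, followed by Cxcl2 (75.5) and Cxcl3 (24.9). In culture CD71- libraries it began with Cxcr2 (203) and Cxcr4 (149), which overlapped, followed by Cxcl2 (67.2) and Cxcl3 (14.4). In culture the receptor genes Cxcr4 and Cxcr2 stood first, while Cxcr1 was below Cxcl2 and Cxcl3, at 0.532 CPM per kb in CD71+ and 3.11 CPM per kb in CD71- libraries. Exon lengths merge all annotated transcripts, so the isoform in use could move these levels.

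The genes whose log2 levels followed each member most closely over the 8 libraries were taken from 9761 candidates with a mean of at least 5 CPM, by the root mean square (RMS) difference after centring; libraries share source and sort, so a small value is a description of this design. For Cxcl2 the nearest were F3, the gene of tissue factor (RMS 0.15), C430019N01Rik (0.22) and Ifrd1 (0.23). Cxcl1 was followed by the immediate early gene Fosb (0.33), AC158975.2 (0.50) and the nuclear receptor gene Nr4a1 (0.63), and Cxcl3 by Gm48302 (0.24), AC132253.7 (0.24) and the chemokine gene Ccl3 (0.27). Cxcl10 was followed by Mobp, a myelin gene (0.42), the interferon-induced Isg15 (0.42) and the adhesion molecule gene Vcam1 (0.44), Cxcl9 by Ppfia4 (0.49), Rasgef1b (0.52) and Hpgds (0.55), and Cxcl16 by Slc12a2 (0.46), the collagen gene Col4a1 (0.53) and Pmepa1 (0.54). By RMS, Cxcr2 and Cxcr4 had the nearest neighbours of the set. An RMS difference also depends on how far a gene ranges, and these receptors differed less between sources than the ligands. Correlation gave another order, with 0.9995 for Cxcl2 with F3 and 0.998 for Cxcl1 with Fosb. The highest values listed were 0.993 for Cxcr2 (Osbpl9) and 0.996 for Cxcr4 (Dph3). Cxcr2 was followed by Osbpl9 (0.10), Kcnj2 (0.11) and Atf7ip (0.14), Cxcr4 by Pxk (0.10), Dph3 (0.11) and Atp6v1d (0.12), and Cxcr1 by Cmah (0.27), Mpzl3 (0.28) and Dnah17 (0.29).

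Other genes of the pathway were counted from lists, here and below. In tumour CD71+ libraries 26.2% of all genes tested were higher and 17.3% lower (median log2 fold change 0.13). In culture CD71+ libraries 7.88% were higher and 8.36% lower (median 0.03). With total counts 6787 of the 15975 genes were higher and 491 lower in the tumour, and 2617 and 618 in culture. In the tumour 3454 were higher and 3854 lower with DESeq2 size factors, and 3005 and 3491 by DESeq2's test. By that test 1013 were higher and 1573 lower in culture. List counts under these settings are to be read against these numbers. Of 7 tested other CXC ligands (Cxcl11, Cxcl12, Cxcl13, Cxcl14, Cxcl15, Cxcl17, Pf4 and Ppbp were listed), 4 were higher in tumour CD71+ than CD71- libraries (2 by DESeq2), with summed levels of 24.6 and 37.8 CPM against 11.8 and 12.7 CPM. In culture 2 were higher in CD71+ libraries, at 3.66 and 5.0 CPM against 0.770 and 1.36 CPM. The sums were highest in tumour CD71+ libraries. Of 3 tested other CXC or atypical chemokine receptors, 1 was higher and 1 lower in tumour CD71+ libraries, and in culture 0 passed by edgeR, at an unadjusted p under 0.05 or by DESeq2. The lower one was Cxcr5, the receptor of CXCL13 (log2 fold change -1.01, SE 0.31, edgeR adjusted p = 0.0192), which was 0.02 with mature neutrophil scaling, -0.45 with total counts (adjusted p = 0.301), and lost its call when replicate 2 of tumour CD71+ (0.102) or replicate 1 of tumour CD71- (0.0909) was left out.

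Among 9 other chemoattractant receptors of neutrophils, 1 was higher and 7 lower in tumour CD71+ libraries (median log2 fold change -0.82), and 1 was lower in culture CD71+ libraries (median 0.03). With total counts 1 was higher in the tumour and 1 higher in culture, and the others did not pass. The complement receptor gene C3ar1 rose in tumour CD71+ libraries by 3.43 on the log2 scale (SE 0.21, edgeR adjusted p = 4.01e-07). The complement receptor gene C5ar1 (-0.99, SE 0.18, adjusted p = 0.000789) and the formyl peptide receptor gene Fpr1 (-0.85, SE 0.18, adjusted p = 0.00196) were lower on the TMM scale; both lost their calls with total counts (0.0651 and 0.247) and were 0.04 and 0.20 with mature neutrophil scaling. Fpr1 and Fpr2 are among the 25 genes of that scaling, which draws their own values towards 0. In culture Fpr2 was lower in CD71+ libraries (-0.53, SE 0.16, adjusted p = 0.0388) but 0.43 with mature neutrophil scaling, and its call was lost without either tumour CD71+ library or any culture library (adjusted p from 0.0550 to 0.314). C3ar1 is also a gene of macrophages and microglia, whose markers were higher in the same tumour CD71+ libraries; their part was not tested.

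Of 23 genes of chemokine receptor signalling and desensitisation, 1 was higher and 6 lower in tumour CD71+ libraries (median -0.31). In culture CD71+ libraries 1 was higher and 7 lower (median -0.26). Of all genes tested, 26.2% were higher and 17.3% lower in the tumour, and 7.88% and 8.36% in culture. The tumour count rested on the scaling and the tool: 13 were lower with DESeq2 size factors, 1 was higher and 13 lower by DESeq2's test, and 5 were higher with total counts. In culture 1 was higher and 2 lower with total counts. The higher one in both was Rgs1, a brake on G protein signalling, at 0.81 in the tumour (SE 0.23, edgeR adjusted p = 0.0136) and 1.51 in culture (SE 0.24, adjusted p = 0.00117). The tumour call of Rgs1 was lost with DESeq2 size factors (adjusted p = 0.0564) and when replicate 2 of tumour CD71+ (0.46, 0.192) or replicate 1 of tumour CD71- (0.49, 0.227) was left out. The Src-family kinase gene Fgr (-0.84, SE 0.16, adjusted p = 0.000984) and Dock2, a Rac activator (-0.75, SE 0.18, adjusted p = 0.00402), were lower in tumour CD71+ libraries on the TMM scale, and 0.19 and 0.29 with mature neutrophil scaling. In culture CD71+ libraries the receptor kinase gene Grk6 was lower (-0.98, SE 0.23, adjusted p = 0.0109), with -0.01 under mature neutrophil scaling. Grk6 lost its call without culture CD71+ replicate 1 (0.109) or 2 (0.0638) or culture CD71- replicate 2 (0.0669).

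Of 19 NF-kappaB regulators and signals that induce the ligands of CXCR2, 16 were lower in tumour CD71+ libraries (median -0.76), and 2 with total counts; the others did not pass. In culture 2 were higher and 6 lower in CD71+ libraries (median -0.53), with 2 and 9 by DESeq2 and 4 and 1 with total counts. The NF-kappaB subunit gene Nfkb2 (-1.11, SE 0.23, edgeR adjusted p = 0.00229) and Bcl3, a nuclear partner of NF-kappaB (-1.05, SE 0.21, adjusted p = 0.00153), had the largest falls in the tumour, and were -0.08 and -0.03 with mature neutrophil scaling. The cytokine genes Il1a (1.75, SE 0.20, adjusted p = 8.67e-05) and Tnf (0.63, SE 0.16, adjusted p = 0.0159) were higher in culture CD71+ libraries, the Tnf call being lost without culture CD71+ replicate 1 (0.121) or 2 (0.0959). The interleukin 17 receptor gene Il17ra (-1.01, SE 0.16, adjusted p = 0.00100) and Nfkb2 (-0.83, SE 0.24, adjusted p = 0.0280) were lower in culture CD71+ libraries, at -0.04 and 0.14 with mature neutrophil scaling. Nfkb2 lost its culture call without culture CD71+ replicate 1 (0.218) or 2 (0.0937) or culture CD71- replicate 2 (0.196).

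Of 14 tested genes of interferon signalling and response, 1 was higher and 8 lower in tumour CD71+ libraries (median -0.52). In culture CD71+ libraries 2 were higher and 4 lower (median -0.01). In the tumour 1 was higher and 12 lower with DESeq2 size factors and by DESeq2's test, and 2 were higher with total counts. In culture 5 were higher and 2 lower with total counts. The higher one in the tumour was Irf8, a transcription factor of monocytes and macrophages (3.26, SE 0.25, edgeR adjusted p = 1.22e-06), which was also higher in culture CD71+ libraries (3.001, SE 0.31, adjusted p = 3.61e-05) together with the guanylate-binding protein gene Gbp2 (1.38, SE 0.19, adjusted p = 0.000334). Irf1 (-0.89, SE 0.17, adjusted p = 0.000999) and the type I interferon receptor gene Ifnar1 (-0.85, SE 0.16, adjusted p = 0.00117) were lower in tumour CD71+ libraries on the TMM scale, and 0.14 and 0.18 with mature neutrophil scaling. In culture CD71+ libraries Irf7 (-1.14, SE 0.23, adjusted p = 0.00477) and Irf1 (-1.11, SE 0.17, adjusted p = 0.000652) were lower, at -0.17 and -0.14 with mature neutrophil scaling. Irf7 lost its call without culture CD71+ replicate 1 (0.0718). Macrophage and monocyte markers were higher in the same CD71+ libraries as Irf8, and their part was not tested.

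Of 6 tested proteases that cut CXC chemokines or CXCL16, 2 were higher and 1 lower in tumour CD71+ libraries (1 and 2 by DESeq2), and in culture 0 passed by edgeR (2 higher and 1 lower at an unadjusted p under 0.05, and 1 lower by DESeq2). Adam10, which sheds CXCL16 from the cell surface, was higher (0.68, SE 0.19, edgeR adjusted p = 0.0125), a call lost with DESeq2 size factors (0.0703), with DESeq2's test (0.0655) and when replicate 2 of tumour CD71+ (0.0858) or replicate 1 of tumour CD71- (0.36, 0.244) was left out. Mmp9, a gelatinase stored in neutrophil granules, was lower (-0.97, SE 0.20, adjusted p = 0.00206) on the TMM scale. With mature neutrophil scaling it was 0.06, but Mmp9 is itself 1 of the 25 genes whose summed counts set that scaling, which draws its own value towards 0. With mature neutrophil scaling every gene of the 7 pathway lists that passed in a CD71 comparison was higher. In the tumour these were 15 of the 23 signalling genes, 5 of the 19 NF-kappaB genes, 6 of the 14 interferon genes and 2 of the 9 chemoattractant receptors. In culture they were 13, 9, 10 and 8 of the same lists. Of all 15975 genes tested, 9333 were higher and 29 lower in the tumour under this scaling, and 9507 and 191 in culture.

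For the difference of the CD71 effects, 5 NF-kappaB genes and 4 interferon genes were lower in the tumour. In the same test 1 chemoattractant receptor was higher and 3 lower, where 10.8% of all genes tested were higher and 4.71% lower. The other 4 lists had 0 calls by edgeR; at an unadjusted p under 0.05, 1 signalling gene was higher and 1 lower and 1 other receptor lower, and DESeq2 called 1 signalling gene lower. Between sources, genes of the NF-kappaB and interferon lists were mostly higher in the tumour. Of all genes tested, 30.3% were higher in each fraction, 36.8% lower in CD71- libraries and 27.6% lower in CD71+ libraries. In CD71- libraries 18 of 19 NF-kappaB genes were higher and 1 lower (median log2 fold change 3.34), and in CD71+ libraries 18 were higher (2.71). All 14 interferon genes were higher in tumour CD71- libraries (median 2.29), and 13 in tumour CD71+ libraries (1.61). Of the 9 chemoattractant receptors, 8 were higher and 1 lower in tumour CD71- libraries, and 6 higher in tumour CD71+ libraries. Genes of receptor signalling showed no such shift, with 9 of 23 higher and 7 lower in tumour CD71- libraries and 8 higher and 7 lower in tumour CD71+ libraries. Of the other CXC ligands, 6 of 7 were higher in tumour CD71- libraries and 7 in tumour CD71+ libraries. These comparisons share libraries, so their counts are not independent.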

How the data were processed

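Whole-number read counts per gene, which the authors deposited without normalization, were available for all 8 libraries. Per the labels' protocols, a Zymo kit (Quick-RNA Microprep) gave the RNA, and an Illumina stranded total RNA kit with Ribo-Zero Plus gave the libraries. FastQC, cutadapt, STAR, featureCounts, DESeq2 and build mm10 are named in the submitters' processing notes; versions and the strand setting of the counting are not given in the sources used here, so reads of overlapping genes are uncertain. All 55450 gene identifiers matched GENCODE M21.

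Tests used edgeR 4.0.16 under R 4.3.3 (filterByExpr, 15975 genes kept; TMM; robust quasi-likelihood fit of 4 group means to 8 libraries, with 4 residual degrees of freedom). P-values were adjusted by Benjamini-Hochberg over all genes tested, and the threshold was 0.05. The method was tested on simulated counts. The standard error is the log2 fold change divided by the square root of the test's F value. For genes with 0 counts in a group, folds are bounds against 3 counts per library. They take the other group means as exact, and the p-value given with a bound is that of edgeR's test of no difference. Replicate pairs were not identical and differed by more than counting noise (chi-square 13.1 to 72.7 per degree of freedom).

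The 10 genes, the lists and the tests were chosen with earlier results of these data known. From each list the text names up to 2 rises and 2 falls of largest size that passed with a mean of at least 5 CPM, only for the 2 comparisons of CD71 fractions; 1 gene that this rule names is not reported here. Alternatives were DESeq2 size factors, total counts and the sum of 25 mature neutrophil genes for scaling, no filter, DESeq2 1.42.0 for the test, fits to the groups compared only, a replicate block, and leaving out each library. A crossed block was added after seeing the data.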

Additional observations from a re-analysis of the deposited data

Results flagged for a closer look

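The CD71 effect, as the log2 fold change of CD71+ over CD71- libraries, differed between tumour and culture for 3 genes by a test of the difference itself in edgeR. For Cxcl1 the effect was lower in the tumour by at least 1.19, with the other group means taken as exact. This is a bound of -1.19 because both culture CD71- libraries had 0 counts. The test of no difference gave an adjusted p of 0.00391. For Cxcl3 the difference was -1.43 (adjusted p = 0.0325), with -0.65 in the tumour and 0.78 in culture, neither of which passed alone. The tumour value was -0.10 with total counts and 0.38 with mature neutrophil scaling. For Cxcl16 the difference was -1.28 (adjusted p = 0.0217), with rises of 1.99 in the tumour and 3.28 in culture. With total counts the differences of Cxcl3 (edgeR adjusted p = 0.0529) and Cxcl16 (0.0677) did not pass. The culture values of Cxcl1 and Cxcl16 rest on few counts, at most 14 for Cxcl1 and 6 to 13 for Cxcl16 in culture CD71- libraries. Mitochondrially encoded genes took 7.09% and 12% of counts in those culture CD71- libraries, against 0.202% to 2.17% in the other libraries, and their part in these differences was not tested.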

How the results depend on the processing

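Of the alternatives to single-gene results, 914 kept direction and side of the threshold, 79 lost the call, 25 gained one and 32 changed sign; the cause was not tested. Of the 32, 21 passed with the reported settings, the alternative or both, all of them under scaling on mature neutrophil genes. In the tumour CD71 comparison these became 0.81 for Cxcl1, 0.22 for Cxcl2, 0.021 for Cxcr2, 0.43 for Cxcr4, 0.019 for Cxcr5, 0.041 for C5ar1, 0.20 for Fpr1, 0.19 for Fgr, 0.29 for Dock2, 0.14 for Irf1, 0.18 for Ifnar1, 0.059 for Mmp9 and 0.38 for Tfrc. In the culture CD71 comparison they became 0.027 for Cxcr2, 0.63 for Cxcr4, 0.43 for Fpr2 and 0.14 for Nfkb2. In tumour against culture they became -0.82 for Cxcr2 and -0.045 for Cxcr4 in CD71- libraries, and -0.83 and -0.24 in CD71+ libraries. The other 11 passed in neither setting. With mature neutrophil scaling they were 0.38 for Cxcl3 in the tumour and 0.14 for Cxcl10 in culture, and with total counts 0.33 for Cxcl1 in the tumour and 0.18 for the difference in Cxcr2. Tfrc in culture was -0.013 with DESeq2 size factors and -0.0051 with DESeq2's test. Leaving out 1 library gave -0.033 to 0.47 for Cxcl10 in the tumour, -0.26 to 0.81 for Cxcl2 and -0.18 to 0.31 for Tfrc in culture, and -0.41 to 0.17 for the difference in Cxcr2.

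Of the 10 genes, 3 passed with total counts in the tumour CD71 comparison, against 6, and 5 with no filter for the difference of the CD71 effects, against 3. With mature neutrophil scaling 9698 genes passed in the culture CD71 comparison, against 2595. Leaving out 1 library gave 4495 to 7712 genes in the tumour CD71 comparison (lowest without tumour CD71- replicate 2), 826 to 2880 in culture (lowest without culture CD71+ replicate 1, and 1050 without replicate 2), and 966 to 3609 for the difference, with 1 to 4 of the set. The difference fell to 1255 and 966 without tumour CD71- replicate 1 or 2, and to 1014 and 1012 without culture CD71+ replicate 1 or 2, where 1 of the set passed. A group left with 1 library is assumed to vary like the others.

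Replicate numbers are shared across groups, but no label says that a number marks a shared animal or batch, and the deviations of same-numbered libraries correlated weakly (0.07 in the tumour, 0.01 in culture, -0.03 and -0.13 between sources in CD71+ and CD71- libraries). With a replicate block 6336 genes passed in the tumour CD71 comparison, 2135 in culture, 1998 for the difference, and 10308 and 8717 for tumour against culture in CD71- and CD71+ libraries. Under the block Cxcl3 passed in the tumour (-0.67, edgeR adjusted p = 0.0357) and in culture (0.84, adjusted p = 0.0336), and Fpr2 did not pass in culture (0.0622). Crossing the numbers in CD71- libraries between sources, chosen after seeing the data, gave 10811 genes. In culture, depth limits the values of Cxcl10 (15 to 33 counts per library), Cxcl1 (0 to 14) and, in CD71- libraries, Cxcl16 (13 and 6).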
